A study of Mus musculus with 6 samples.

Results

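The respiratory chain is described here as 99 of the 22032 genes in a mouse count table, 13 from the mitochondrial genome and 86 from the nucleus. The mitochondrial members are the 13 upper-case symbols COX1 to COX3, CYTB, ATP6, ATP8, ND1 to ND6 and ND4L. The nuclear members are the symbols of the Nduf, Sdh, Uqcr, Cyc1, Cox4 to Cox8 and Atp5 series, so the choice used names and no measured value. Temporomandibular joint, the joint between jaw and skull, was taken at 10 weeks of age from Igf2bp2-KO (Igf2bp2-/-) mice and from wild-type (WT) littermates, and both groups were otherwise alike in the labels. Each group has 3 poly(A)-selected RNA-seq libraries. The labels do not say whether the libraries of a group came from separate animals or pools, and the p-values speak only for the spread among the samples given. They do not give the deleted part of Igf2bp2 either. Igf2bp2 encodes an RNA-binding protein of the insulin-like growth factor 2 mRNA-binding family.

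Complexes I, III and IV pass electrons from NADH and ubiquinol to oxygen and pump protons across the inner mitochondrial membrane, complex II feeds electrons from succinate without pumping, and complex V uses the proton gradient to make ATP. Complexes I, III, IV and V are built from subunits of both genomes, while every subunit of complex II comes from the nucleus. Mitochondrial subunit mRNAs are cut from long transcripts of each strand of the mitochondrial genome, and most carry short poly(A) tails. Each nuclear subunit has its own promoter. Joint tissue taken with its surroundings can hold jaw muscle, whose fibres are rich in mitochondria.

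The mitochondrial genes lie next to each other, and some neighbours share bases on the same strand, which matters for reading their counts. In GRCm38 the end of ATP8 (chrM:7766-7969) overlaps the start of ATP6 (chrM:7927-8607) by 43 bases, which is 21.1% of the 204 bases of ATP8. ND4L (chrM:9877-10173) overlaps ND4 (chrM:10167-11544) by 7 bases. ATP6 and COX3 (chrM:8607-9390) share 1 base. The sequences below show the ATP8/ATP6 and ND4L/ND4 junctions with 30 bases on either side, and capitals mark the bases that belong to both genes.
ATP8/ATP6, chrM:7897-7999, plus strand: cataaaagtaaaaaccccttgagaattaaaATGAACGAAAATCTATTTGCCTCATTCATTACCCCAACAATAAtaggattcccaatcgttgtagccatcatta
ND4L/ND4, chrM:10137-10203, plus strand: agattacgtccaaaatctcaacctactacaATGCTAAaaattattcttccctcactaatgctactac
The capitals open with the ATG that starts ATP6 and ND4. No source used here says how reads in the shared bases were assigned, so the split between ATP8 and ATP6 and between ND4L and ND4 is uncertain. ND5 (chrM:11742-13565, plus strand) and ND6 (chrM:13552-14070, minus strand) overlap by 14 bases, and without a stated strand setting their reads cannot be fully told apart.

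Total counts ran from 28551236 to 35094127 per library. Igf2bp2 had 13, 14 and 10 counts in KO 1, KO 2 and KO 3 against 38, 20 and 24 in WT 1, WT 2 and WT 3, and was lower in KO (log2 change -1.80, SE 0.39, edgeR adjusted p = 0.00589). At the median nuclear gene KO 1 and KO 3 agreed within counting noise (squared difference 0.941 times that of sampling, each fragment taken as 2 counts). So did WT 2 and WT 3 (0.964 times). The means of that ratio for these pairs were 1.18 and 1.08, so the agreement does not cover every gene. These pairs were summed, giving 2 samples per group: KO 1+3 and KO 2 against WT 1 and WT 2+3. The other 4 pairs of libraries within a group differed by 1.31 to 1.63 times sampling, again at the median. On the 13 mitochondrial genes the close pairs still differed by far more than counting noise: ATP8 had 433824 counts in KO 1 and 324491 in KO 3. KO 2 and WT 1 stood apart from their groups in the same direction (correlation of deviations 0.576 across 3038 genes, which are not independent replicates). Values without WT 1 or KO 2 are given beside the results below that they move most. Those fits leave 1 sample in a group and 1 residual degree of freedom. Calls from them are given only for the 13 mitochondrial genes. With a single sample in a group they cannot decide whether a call holds, and no conclusion is drawn from them. Counts were scaled by edgeR's TMM factors, which assume that most genes are level, and are given as CPM, a library's counts brought to a common total. A gene is called when its Benjamini-Hochberg adjusted p over 14632 tested genes is under 0.05. All 99 members passed the filter on low counts.

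Mitochondrial transcripts took the greater part of every library and a smaller part in KO. The 13 genes held 85.7%, 86.04% and 85.3% of all counts in KO 1, KO 2 and KO 3, and 90.6%, 90.8% and 90.8% in WT 1, WT 2 and WT 3. Every KO library lay below every WT library. The means were 85.8% ± 0.386 (SD, n = 2) in KO and 90.7% ± 0.192 (SD, n = 2) in WT, a difference of -4.93 percentage points. The two-sided exact permutation p was 0.1 over the 6 libraries, the smallest that 3 against 3 allows, and 0.333 over the 4 samples, again the smallest. In raw counts the mitochondrial genes were close between the groups (COX1, the catalytic subunit of complex IV, 29364482 in the 3 KO libraries and 29812424 in the 3 WT libraries). Counts on nuclear genes were 4604575, 4899680 and 4676821 in KO and 3205190, 2625472 and 2969429 in WT. Fewer mitochondrial transcripts and more nuclear transcripts in KO cannot be told apart from these shares, nor can fewer cells of a type and less RNA per cell.

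**Figure D1:**
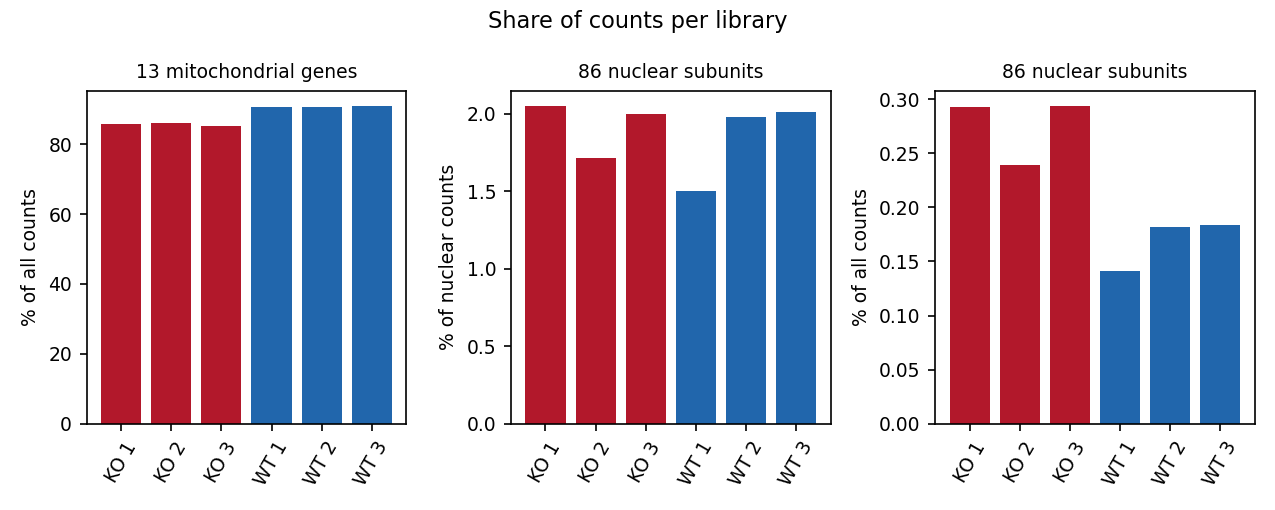
Bars give, for each of the 6 libraries (KO red, WT blue), the percentage of all counts on the 13 mitochondrial genes, the percentage of nuclear counts on the 86 nuclear subunits, and the percentage of all counts on those subunits. The mitochondrial share is between 85.3% and 86.04% in KO and between 90.6% and 90.8% in WT. The nuclear subunits overlap between the groups as a share of nuclear counts (1.498% to 2.05%) and do not overlap as a share of all counts (0.142% to 0.184% in WT, 0.240% to 0.293% in KO).

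On the TMM scale 12 of the 13 mitochondrial genes were called lower in KO, against 8.48% of all tested genes called lower. Their log2 changes ran from -0.72 to -0.45 with a median of -0.62, where the median over all tested genes was -0.01. All 13 had every KO library below every WT library, a pattern that 19.3% of all tested genes showed. COX1 stood at 243100, 246600 and 239600 CPM in KO and 371800, 382400 and 394400 CPM in WT, a gap wider than the spread inside either group. Its log2 change was -0.64 (SE 0.12, edgeR adjusted p = 0.00199). The calls depend on scaling. With total counts as the only scaling the median over all tested genes moved to 0.54, the mitochondrial median was -0.07 and none of the 13 was called lower (2.64% of all tested genes were). Without KO 2 none was called either (edgeR adjusted p from 0.109 to 0.516; 3.41% of all tested genes called lower), at a median of -0.66. Between the samples that resemble each other, the median was -0.52 for KO 2 against WT 1 and -0.71 for KO 1+3 against WT 2+3, and all 13 were below 0 in each.

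Complex I takes 7 mitochondrial subunits, which form its proton-pumping membrane arm. ND5, the pump subunit at the far end of that arm, had 31390, 31050 and 28710 CPM in KO and 52440, 49860 and 47160 CPM in WT. Its log2 change of -0.72 (SE 0.13, edgeR adjusted p = 0.00133) was the lowest value among the 13. ND3, which lies near the junction with the peripheral arm, was the member not called (log2 change -0.45, SE 0.19, edgeR adjusted p = 0.128). It had 6469, 6204 and 6379 CPM in KO and 6811, 10200 and 10730 CPM in WT. The WT 1 value lay close to the KO libraries and far from WT 2 and WT 3; without WT 1 the log2 change of ND3 was -0.72 and all 13 mitochondrial genes were called lower, beside 6.62% of all tested genes. ND1, ND2, ND4, ND4L and ND6 had log2 changes of -0.62, -0.56, -0.65, -0.60 and -0.61. ND6, annotated on the opposite strand from the other 12, lay inside their range. Without a stated strand setting its reads cannot be fully told apart from those of ND5, so this value cannot speak for its strand.

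CYTB, the only mitochondrial subunit of complex III and carrier of its b-type haems, had 81360, 85150 and 79830 CPM in KO and 125000, 129900 and 133800 CPM in WT (log2 change -0.63, SE 0.12, edgeR adjusted p = 0.00288). In complex IV, COX2, which holds the copper centre that accepts electrons from cytochrome c, had a log2 change of -0.63 and COX3 one of -0.61. In complex V, ATP6, part of the proton channel, had 44710, 45390 and 43040 CPM in KO and 65330, 72560 and 73960 CPM in WT, a log2 change of -0.63 (SE 0.13, edgeR adjusted p = 0.00359). ATP8, whose end is shared with ATP6 as printed above, had a log2 change of -0.57 (SE 0.13, edgeR adjusted p = 0.00983). Thus the mitochondrial medians of complexes I, III, IV and V were -0.61, -0.63, -0.63 and -0.60, closer to each other than the SE of any of these genes.

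Within the mitochondrial counts the make-up was alike in both groups. COX1 held between 33.7% and 35.5% of them in every library, CYTB between 11.5% and 11.9%, and ND1 between 9.33% and 9.77%. For each of the 13 genes the range of shares in KO overlapped that in WT. The widest gaps were between libraries of 1 group. ATP8 made up 1.57%, 1.57% and 1.20% in KO 1, KO 2 and KO 3, and 1.46%, 1.31% and 1.43% in WT. ND3 made up 0.650% in WT 1 and between 0.867% and 0.938% in the other 5 libraries.

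The nuclear subunits did not move with the mitochondrial ones. Of the 86, 1 was called higher in KO, where 9.15% of all tested genes were called higher (no member without KO 3 or WT 3). None was called lower, where 8.48% were. At an unadjusted p under 0.05 in edgeR there were 4, all higher, and DESeq2 called none in either direction (4.66% of all tested genes higher and 3.6% lower). The median log2 change was 0.16, with 67 values above 0 and 19 below. The sign changed when WT 1 alone was left out. Without WT 1 the nuclear median was -0.07 with 31 values above 0, and without KO 2 it was 0.28 with 75 above 0. Between the samples that resemble each other, the median was 0.29 for KO 2 against WT 1 and 0.05 for KO 1+3 against WT 2+3. Most members overlapped between the groups: 6 of the 86 (6.98%) had KO and WT libraries that did not overlap, where 38.4% of all tested genes had. As a share of nuclear counts the subunits held 2.05%, 1.72% and 2.00% in KO and 1.498%, 1.98% and 2.01% in WT. The lowest value of each group was that of KO 2 and WT 1, and the groups overlapped.

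**Figure D2:**
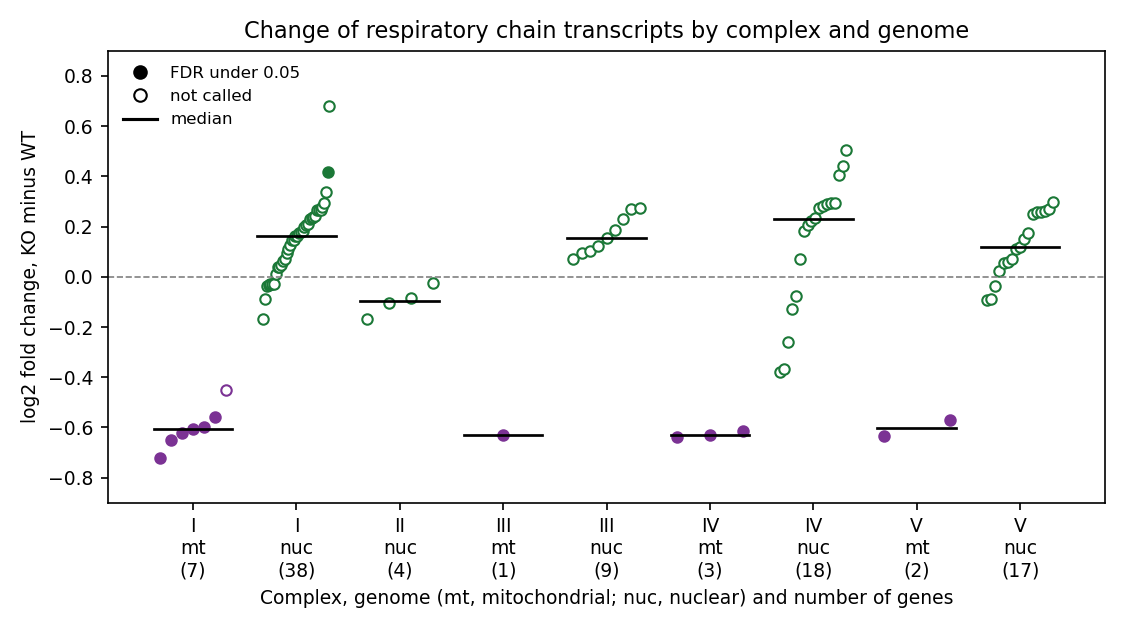
Each point is 1 gene, placed by complex and genome, with its TMM-scaled log2 fold change of KO minus WT on the vertical axis; filled points have an adjusted p under 0.05 and bars are medians. The mitochondrial genes lie between -0.72 and -0.45, the nuclear genes between -0.38 and 0.68 with 1 filled point; with total counts as the only scaling the nuclear medians rise to between 0.46 and 0.79, complex II included, and the mitochondrial ones lie between -0.08 and -0.05.

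The nuclear core subunits of complex I carry its flavin and iron-sulphur clusters. Over the 7 core subunits the median log2 change was 0.20 with 6 above 0, and without WT 1 it was 0.15 with 6 above 0. Without KO 2 it was 0.26 with 7 above 0. Over all 38 nuclear genes of complex I the median was 0.16, and it was -0.07 without WT 1 and 0.29 without KO 2. Ndufv2, an iron-sulphur subunit of the NADH-oxidising module, had KO libraries all above WT libraries (30.2, 27.1 and 28.9 CPM in KO, 20.6, 24.3 and 26.7 CPM in WT), but was not called (log2 change 0.29, SE 0.13, edgeR adjusted p = 0.135; log2 change 0.16 without WT 1).

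The 29 supernumerary subunits of complex I, which surround the core, had a median log2 change of 0.16, and 25 were above 0. Without WT 1 the median was -0.07 and 8 were above 0, and without KO 2 it was 0.33 and 29 were. Ndufc2, a subunit of the membrane arm, had the highest value of any nuclear member. It stood at 16.7, 13.8 and 16.4 CPM in KO and 6.68, 12.2 and 12.0 CPM in WT, without overlap. WT 1 lay far below the other WT libraries, and the change of 0.68 had a 95% interval from -0.06 to 1.42 (edgeR adjusted p = 0.198); without WT 1 it was 0.35. Ndufs4, a subunit of the peripheral arm, averaged 10.8 ± 1.305 CPM in KO against 11.1 ± 1.37 CPM for WT (SD, n = 2 each; log2 change -0.04, 95% interval -0.33 to 0.25; -0.14 without WT 1 and 0.08 without KO 2). The symbols Ndufb4b and Ndufb4c are near copies of Ndufb4 by name, had under 1 CPM in every library (24 counts and 18 counts in KO 1), and are uncertain because reads of copies can be split.

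Complex II, which has no mitochondrial subunit, was the complex with no nuclear value above 0 on the TMM scale, although with total counts alone all 4 were above 0. The log2 changes were -0.03 for Sdha, the flavoprotein, -0.11 for Sdhb, the iron-sulphur subunit, and -0.17 and -0.08 for the membrane anchors Sdhc and Sdhd. Without WT 1 the changes of Sdha, Sdhb, Sdhc and Sdhd were -0.09, -0.23, -0.12 and -0.29, and without KO 2 they were 0.01, -0.03, -0.09 and -0.08. Sdhc had 21.5, 19.2 and 21.2 CPM in KO and 23.5, 22.0 and 22.5 CPM in WT. It was the nuclear member with every KO library below every WT library, by a small margin, and was not called (SE 0.11, edgeR adjusted p = 0.351). Sdha averaged 28.2 ± 0.876 CPM in KO against 28.7 ± 2.25 CPM for WT (SD, n = 2 each; 95% interval of the log2 change -0.27 to 0.22). No test compared complex II with the other complexes.

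All 9 nuclear subunits of complex III had a log2 change above 0 (median 0.16), but none was called and every one overlapped between the groups. Without WT 1 the median was -0.04 with 3 above 0, and without KO 2 it was 0.31 with 9 above 0. Cyc1, the cytochrome that hands electrons to cytochrome c, stood at 27.1, 24.3 and 27.2 CPM in KO and 22.3, 27.2 and 26.2 CPM in WT (log2 change 0.07, 95% interval -0.20 to 0.34; -0.04 without WT 1). Uqcrfs1, the Rieske iron-sulphur protein, had a log2 change of 0.10 (95% interval -0.23 to 0.42; -0.07 without WT 1). The small subunit Uqcr11 had the highest value, 0.27 (95% interval -0.23 to 0.78; 0.04 without WT 1). CYTB of the same complex, at -0.63, lay below all 9.

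The 18 nuclear genes of complex IV had a median log2 change of 0.23, with 13 above 0. The median was -0.05 without WT 1, with 8 above 0, and 0.39 without KO 2, with 13 above 0. Cox5b, a structural subunit on the matrix side that binds zinc, had 38.3, 35.9 and 37.1 CPM in KO and 23.7, 32.6 and 30.9 CPM in WT. The groups did not overlap, and the change of 0.41 (SE 0.14) fell short of a call (edgeR adjusted p = 0.0636). Ndufa4, named for complex I but now placed in complex IV, also showed no overlap. It had 44.1, 36.1 and 40.5 CPM in KO and 21.5, 31.9 and 34.97 CPM in WT (log2 change 0.50, SE 0.20, edgeR adjusted p = 0.141). In both genes WT 1 was the lowest library, and without it the log2 changes were 0.23 for Cox5b and 0.24 for Ndufa4. Cox4i1, the nuclear subunit of complex IV with the highest WT level per length, averaged 63.5 ± 8.97 CPM in KO against 60.4 ± 11.9 CPM for WT (SD, n = 2 each; log2 change 0.07, and -0.10 without WT 1).

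In complex V the 17 nuclear genes had a median log2 change of 0.12, with 14 above 0, none called and none without overlap. The median was -0.06 without WT 1, with 6 above 0, and 0.20 without KO 2, with 15 above 0. Atp5b, the catalytic beta subunit of the F1 head, had 134.4, 130.5 and 131.3 CPM in KO and 123.2, 132.0 and 129.5 CPM in WT. Its log2 change was 0.05 with a 95% interval from -0.21 to 0.31 (0.02 without WT 1). Atp5a1, the alpha subunit of the same head, averaged 101.0 ± 9.23 CPM in KO against 96.1 ± 12.1 CPM for WT (SD, n = 2 each; log2 change 0.07, and -0.04 without WT 1). Atp5e, the epsilon subunit, was far less even: 70.1, 38.5 and 67.5 CPM in KO and 27.7, 60.3 and 61.9 CPM in WT. KO 2 and WT 1 were far below the other libraries of their groups, and the SE of the log2 change (0.27) was 0.64; the change was -0.17 without WT 1 and 0.63 without KO 2. Atp5g1, Atp5g2 and Atp5g3, which encode the same membrane ring subunit, had log2 changes of 0.12, -0.09 and 0.25 (-0.11, -0.19 and -0.06 without WT 1), none of them called.

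Within a library the ratio of mitochondrial to nuclear subunit counts needs no scaling between libraries. For the 13 mitochondrial genes over 84 nuclear ones (without Ndufb4b and Ndufb4c) it was 293, 359 and 291 in KO 1, KO 2 and KO 3, and 640, 499 and 494 in WT 1, WT 2 and WT 3. Every KO library was below every WT library, and on the log2 scale KO minus WT was -0.80. By complex the difference was -0.82 for complex I, -0.81 for complex III, -0.87 for complex IV and -0.76 for complex V, with no overlap of libraries in any of them. The SD between the 2 samples of a group lay between 0.194 and 0.315 on that scale, wider than the gaps between complexes. Without WT 1, whose ratio was the highest in each complex, the difference over all complexes was -0.62, and without KO 2 it was -0.95. No p is given for these ratios, since the members were grouped with results known. The mitochondrial share of all counts differed likewise (85.8% in KO and 90.7% in WT). The nuclear subunits overlapped between the groups as a share of nuclear counts. Whether the ratio differences go beyond the shift of mitochondrial counts against all nuclear counts was not tested.

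**Figure D3:**
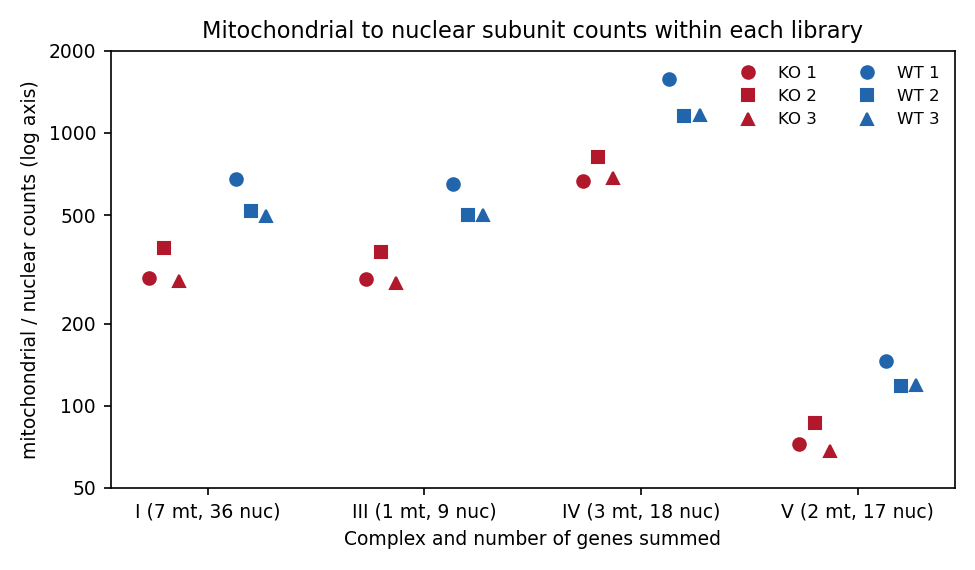
Points give the ratio of summed mitochondrial to summed nuclear subunit counts in each library, on a log axis, for the 4 complexes that have subunits of both genomes (mt, mitochondrial; nuc, nuclear). KO libraries (red) lie below WT libraries (blue) in each complex; in complex V they run from 68.1 to 86.4 in KO and from 118 to 146 in WT.

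Per kilobase of transcript, taken from the longest protein-coding transcript in GENCODE vM21, mitochondrial subunits stood far above nuclear ones. COX1 was the highest member, at 247200 CPM per kb in WT and 158700 in KO. In complex I the median mitochondrial level was 2191 times the median nuclear level in WT and 1197 times in KO. The ratios of these medians were 4894 and 2768 in complex III, 3569 and 1825 in complex IV, and 2319 and 1534 in complex V, WT first. Among nuclear members the highest WT levels per length were Atp5e in complex V (106.1 CPM per kb), Cox4i1 in complex IV (79.0), Uqcrh in complex III (59.9), Ndufb9 in complex I (41.4) and Sdhb in complex II (16.3). The complex II median of 9.76 CPM per kb in WT was the lowest of the nuclear medians, and that of complex V, 38.5, was the highest. Ndufb4b, Ndufb4c and Ndufb1 had no length and are not in these values.

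Several complex IV subunits exist as a form of heart and skeletal muscle and a form found in most tissues. Counted per length, Cox8b, the muscle form, made up 75.3%, 75.1% and 75.3% of Cox8b plus Cox8a in KO and 64.4%, 72.0% and 69.8% in WT, so that the KO libraries were all higher. Cox6a2 made up 69.0%, 67.4% and 67.8% of Cox6a2 plus Cox6a1 in KO and 65.0%, 63.6% and 57.3% in WT, again without overlap. Cox7a1 made up 61.3%, 56.2% and 59.6% of Cox7a1 plus Cox7a2 in KO and 50.3%, 53.1% and 58.8% in WT, and there the groups overlapped. None of these 6 genes was called by itself. Their log2 changes were 0.22 for Cox8b and -0.26 for Cox8a, 0.29 for Cox6a2 and -0.08 for Cox6a1, and 0.44 (SE 0.59) for Cox7a1 and 0.18 for Cox7a2. Without WT 1, in the same order, they were -0.12, -0.44, 0.11, -0.36, 0.01 and -0.15.

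**Figure D4:**
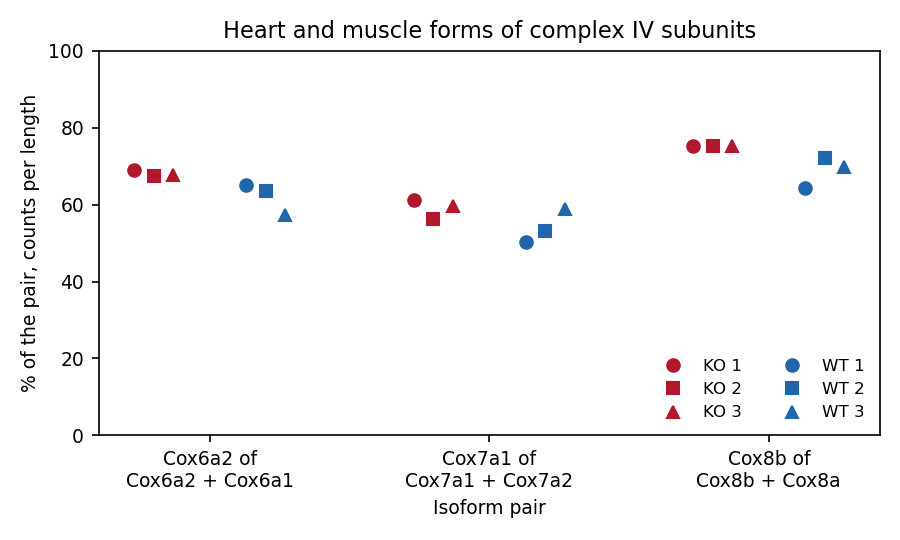
Points give, per library, the percentage of the muscle form in the counts per length of each pair of complex IV isoforms. KO libraries (red) lie between 75.1% and 75.3% for Cox8b and between 67.4% and 69.0% for Cox6a2, above the WT libraries (blue), and overlap with WT for Cox7a1.

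Other pairs were dominated by the common form. Cox4i2, a form known from lung and low-oxygen conditions, held 4.10%, 3.53% and 4.41% of its pair with Cox4i1 in KO and 3.89%, 3.76% and 2.90% in WT. Ndufa4l2, known as a hypoxia-induced relative of Ndufa4, held 4.22%, 4.63% and 4.62% in KO and 11.7%, 5.73% and 5.68% in WT, with WT 1 far above all others. Cox6b2, the testis form, held 2.91% or less in every library and had 12 counts in KO 1, so its order between groups rests on few counts.

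Markers of skeletal muscle moved beside these values. Of 15 fast-muscle genes 6 were called higher and none lower (median log2 change 0.50). Over all tested genes 9.15% were called higher and 8.48% lower, shares that also stand beside the lists below. The fast-muscle median was 0.57 without KO 2 and 0.30 without WT 1. The summed level of these genes was 8431 to 9748 CPM in KO and 5573 to 7670 CPM in WT. As a share of nuclear counts the list held 8.25%, 7.26% and 8.12% in KO and 5.10%, 6.52% and 6.66% in WT, lowest in KO 2 and WT 1 as for the nuclear subunits. The difference between the groups was 1.87 points, and 1.13 points without WT 1. Acta1, skeletal actin, had a log2 change of 0.54 (SE 0.14, edgeR adjusted p = 0.0152), and Myh4, a fast myosin, one of -0.03. Of 12 slow and cardiac-type muscle genes none was called (median -0.15; summed level 288.0 to 341.6 CPM in KO and 243.2 to 286.6 CPM in WT). Of 7 tested brown adipocyte genes, which include the members Cox7a1 and Cox8b, 1 was called higher (Cpt1b) and 2 lower (Ucp1 and Dio2), with a median of 0.04 and a summed level of 57.1 to 72.3 CPM in KO and 38.4 to 61.4 CPM in WT. Ucp1, the defining gene of brown fat, had 0, 0 and 4 counts in KO and 22, 17 and 14 in WT. Of 6 white adipocyte genes 1 was higher and 3 lower (median -1.32), although the summed level was 893.2 to 976.1 CPM in KO and 499.8 to 690.2 CPM in WT. Of 8 erythroid genes none was called (median -0.27; 233.8 to 298.1 CPM in KO, 269.9 to 360.3 CPM in WT). Of 11 osteoblast and osteocyte genes 4 were higher and 1 lower (median -0.15; 582.4 to 648.0 CPM in KO, 282.6 to 323.9 CPM in WT), and of 4 osteoclast genes 3 were lower (12.1 to 14.0 CPM in KO, 21.9 to 25.1 CPM in WT). All 10 tested salivary gland genes were higher in KO (527.3 to 554.8 CPM, against 41.6 to 45.5 CPM in WT), as were all 8 neuronal genes (35.3 to 41.4 CPM against 6.75 to 8.87 CPM). Cartilage markers were low in both groups (15.8 to 19.5 CPM in KO, 17.0 to 19.4 CPM in WT), with 1 of 7 tested higher and 1 lower. Of 4 tested synovial lining genes 2 were higher, 2 were not called and had values below 0, and the summed level was 71.1 to 78.4 CPM in KO and 40.1 to 43.2 CPM in WT. Prg4, the highest of these changes, averaged 46.0 ± 4.78 CPM in KO against 11.3 ± 0.862 CPM for WT (SD, n = 2 each). The part of these cell types in the subunit values was not tested.

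KO 2 and WT 1 shared a pattern in the nuclear subunits. In KO 2, 80 of the 86 were below KO 1+3 (median log2 difference -0.25), and in WT 1, 83 were below WT 2+3 (median -0.51). Over all tested genes 7271 and 7344 of 14632 were lower, with medians near 0. Within the chain the difference was wider for short transcripts. Whether short transcripts outside the chain shared it was not tested. Below 700 bases (28 members) the medians were -0.31 in KO 2 and -0.65 in WT 1, and from 1400 bases up (23 members) they were -0.16 and -0.26. Across the 83 members with a length, Spearman's rho with length was 0.486 in KO 2 and 0.573 in WT 1, a description over genes that share the same libraries. Atp5e and Cox7a1 had the lowest values, -0.83 in KO 2 and -1.14 in WT 1. Among genes outside the chain, AY036118 had 27639 counts in KO 2 against 14120 and 14435 in KO 1 and KO 3, and LOC118568312 had 34861 against 18334 and 17897. WT 1 did not stand apart in AY036118 (20983 against 17438 and 20804) and was lowest in LOC118568312 (20458 against 21750 and 25379). RNA quality and library preparation were not recorded per library in the labels, and their part in this pattern was not tested.

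**Figure D5:**
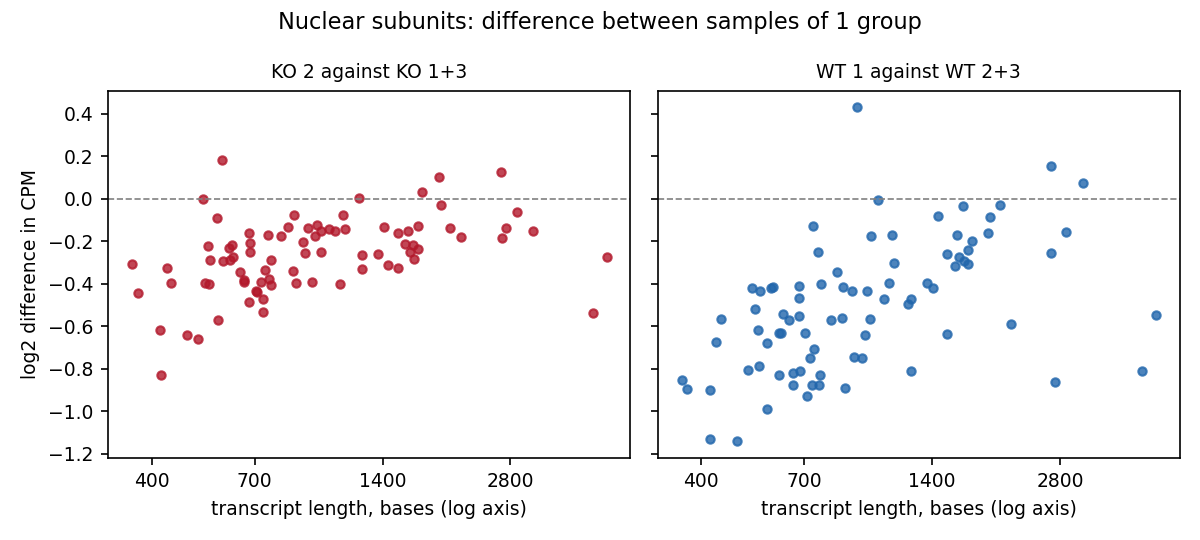
Each point is 1 of 83 nuclear subunits, with transcript length on a log axis and the log2 difference in CPM between samples of the same group, KO 2 against KO 1+3 (left) and WT 1 against WT 2+3 (right). Most points lie below 0, and the shortest transcripts lie lowest: medians of -0.31 and -0.65 under 700 bases.

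Set against each other, the samples that resemble one another gave unlike values for the nuclear subunits. KO 2 against WT 1 had a median log2 difference of 0.29 with 72 of 86 above 0, and KO 1+3 against WT 2+3 a median of 0.05 with 57 above 0. A fit with KO 2 and WT 1 as a term beside group was added after the data had been seen. It called 27 nuclear subunits higher and none lower, where 13.5% of all tested genes were called higher and 12.8% lower, and it leaves 1 residual degree of freedom. Of the 27, 10 were in complex IV, 8 in complex I, 6 in complex V and 3 in complex III, with Ndufc2 (log2 change 0.71) and Ndufa4 (0.53) at the lowest adjusted p. The same fit called all 13 mitochondrial genes lower.

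Of the 134 tested genes of the pathway lists around the chain 2 were called higher and 8 lower, where 9.15% and 8.48% of all tested genes were. Of 15 complex I assembly factors and 10 of complexes II and III, none was. Of 23 for complex IV, Coa5 (log2 change -0.56, SE 0.12, edgeR adjusted p = 0.00375) and Taco1, which activates translation of COX1 (-0.83, SE 0.25, edgeR adjusted p = 0.0347), were lower, and of 5 for complex V, Tmem242 was lower (-0.45). Of 24 genes for mitochondrial transcription, replication and RNA processing, 1 was called, Fastkd2, an RNA-binding protein of mitochondria (-0.82, edgeR adjusted p = 0.0272). Polrmt, the mitochondrial RNA polymerase, had a log2 change of -0.03. Tfam, which packages mitochondrial DNA and starts its transcription, had 3.00, 3.18 and 2.78 CPM in KO and 3.96, 4.196 and 3.45 CPM in WT, without overlap but not called (-0.36, SE 0.17, edgeR adjusted p = 0.176).

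Of 12 biogenesis regulators, Ppargc1b, a coactivator of mitochondrial genes, was lower (-1.03, SE 0.30, edgeR adjusted p = 0.0315), as was Perm1 (-0.50, edgeR adjusted p = 0.0443). Ppargc1a, the relative of Ppargc1b, had a log2 change of 0.04. Of 15 genes for cytochrome c and quinone synthesis, Coq10b was lower (-0.67), and Cycs, cytochrome c itself, was not called (0.18). Of 17 tricarboxylic acid cycle genes, Idh3g was higher (0.44, edgeR adjusted p = 0.0133) and Idh2 lower (-0.51, edgeR adjusted p = 0.0181), and of 13 outer membrane and carrier genes the channel Vdac1 was higher (0.37, edgeR adjusted p = 0.035). Over all pathway lists the median log2 change was -0.003, and it was -0.07 without WT 1 and 0.01 without KO 2. Whether the calls named for these lists hold without WT 1 or KO 2 cannot be judged. A group then has a single sample. The libraries of Taco1 overlapped between KO and WT.

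Promoters of the nuclear subunits were searched for 4 motifs on both strands, in RefSeq windows of 250 bases before to 50 after the start site (GRCm38.p6), which were found for 69 of the 86. The core site of NRF1, a factor known for respiratory genes, was searched as GCGCATG. It was in 13 of the 69 (18.8%) and in 4.41% of the promoters of 27025 genes. The ETS core CCGGAAG, which GABP can bind, was in 24.6% against 9.93%, the estrogen-related receptor site AAGGTCA in 11.6% against 5.38%, and the GC box GGGCGG in 39.1% against 38.2%. A match is a run of letters and not a measured site. Cox6a1, the common form of the Cox6a pair above, is shown as a nuclear promoter of this kind, with capitals for 2 matches to the NRF1 core, 1 on each strand, that overlap in a run beginning 162 bases before the start site.
Cox6a1, chr5:115349009-115349208, minus strand: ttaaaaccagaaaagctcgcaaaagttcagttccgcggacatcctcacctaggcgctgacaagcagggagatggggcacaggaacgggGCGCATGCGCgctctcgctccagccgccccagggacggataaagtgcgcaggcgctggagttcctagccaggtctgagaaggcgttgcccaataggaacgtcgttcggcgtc
The stretch is 200 bases of the window and ends before the start site.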

How the data were processed

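The authors deposited raw counts per gene symbol for 6 libraries, and HISAT2 2.1.0, StringTie 2.1.5 and the mm39 build are named in the submitters' processing notes. RNA was extracted with TRIzol and mRNA was isolated before library preparation, per the labels' protocols. No source used here gives the annotation, the strand setting or the treatment of reads with several matches. Genes at 2 counts were 4.69 to 5.06 times as many as genes at 1 count. Each fragment was therefore taken as 2 counts when libraries were compared with sampling noise. Then 2 libraries of a group whose median squared difference was under 1.1 times that noise were summed. Counts were tested with edgeR 4.0.16 (R 4.3.3; filterByExpr with a minimum count of 10, TMM, robust quasi-likelihood fit) on all genes, with Benjamini-Hochberg adjustment. SD are over 2 samples per group, and CPM per library come from factors of the 6 libraries. Alternatives were other scalings, filters, DESeq2 1.42.0, separate libraries, a replicate block and leaving out each library. Members and gene lists were chosen with earlier results of these data known. Genes named are the mitochondrial genes, nuclear members called or of smallest p in each complex and direction, the most abundant per length, isoform pairs and the leading genes of each list. Coordinates are from GENCODE vM21 and RefSeq on GRCm38, not the authors' build. The gene-level result of 1 nuclear member is not reported here.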

Additional observations from a re-analysis of the deposited data

How the results depend on the processing

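The count of nuclear subunits called higher in KO (1) was 3 with 6 separate libraries (12.6% of all tested genes higher), 2 with those libraries and a replicate block (10.8%), 4 with no filter on low counts (7.57%), 0 with upper-quartile factors (8.77%), 0 with at least 50 counts in 3 libraries (10.8%), 0 in DESeq2 (4.66%), 69 with total counts (50.2%) and 27 with KO 2 and WT 1 as a term (13.5%; chosen after seeing the data). Leaving out KO 1, KO 3, WT 2 or WT 3 gave 0 to 1 nuclear subunits higher and 0 lower. Total counts as the only scaling moved the median of all tested genes to 0.54, the calls from 51.9% to 95.0% higher, the mitochondrial genes called lower from 12 to 0, the mitochondrial medians of complexes I, III, IV and V to -0.060, -0.083, -0.077 and -0.053, and the nuclear medians of complexes I to V to 0.72, 0.46, 0.71, 0.79 and 0.68. It also turned 11 nuclear members from below 0 to called higher: Ndufb7 0.53, Ndufs4 0.52, Ndufs8 0.53, Sdha 0.53, Sdhb 0.45, Sdhc 0.38, Sdhd 0.48, Cox6a1 0.49, Cox7a2l 0.42, Atp5g2 0.47 and Atp5j 0.47. Counted from the shifted median of all tested genes, the nuclear median was 0.18 above it, against 0.17 on the TMM scale.

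Leaving out KO 1, KO 3, WT 2 or WT 3, 12 mitochondrial genes were called lower each time. The ranges that follow are for leaving out each library, KO 2 and WT 1 included. The mitochondrial medians ranged from -0.66 to -0.57 in complex I, -0.67 to -0.62 in III, -0.73 to -0.61 in IV and -0.67 to -0.55 in V. The nuclear medians ranged from -0.07 to 0.29 in complex I, -0.18 to -0.06 in II, -0.04 to 0.31 in III, -0.05 to 0.39 in IV and -0.06 to 0.20 in V, and those of I, III, IV and V were below 0 only without WT 1. The ratio differences ranged from -1.01 to -0.61 in complex I, -0.99 to -0.62 in III, -1.004 to -0.64 in IV, -0.91 to -0.61 in V and -0.95 to -0.62 over all, and the mitochondrial share from -5.20 to -4.83 points. Same-numbered libraries had correlations of deviations of -0.379, -0.459 and 0.270. Because KO 2 and WT 1 stand apart from their groups, these values cannot decide whether equal numbers mark a pairing. With the replicate block 13 mitochondrial genes were lower, as without it on 6 libraries. The causes of these differences were not tested.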
